A study of Drosophila melanogaster with 7 samples.

Results

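The genes described here encode the heterochromatin protein 1 (HP1) family of *Drosophila melanogaster*, the proteins that bind it, and the enzymes and cofactor that methylate histone H3 on lysine 9 (H3K9). The rule named 10 genes by symbol: the gene of HP1a, called *HP1a* here, *HP1b*, *HP1c*, *HP4*, *HP5*, *Su(var)3-9*, *Su(var)3-7*, *Su(var)2-HP2*, *egg* and *wde*. A probe set annotated to that gene alone was found for 8 of them, among 10845 genes on the array, and these 8 genes had 11 probe sets of the 13966 tested. The 2 without one were *Su(var)3-9* and *egg*, the H3K9 methyltransferases of the group, so their transcripts were not analysed here and the label of methyltransferases is represented by the cofactor *wde* alone. None of the 8 measured genes lies on chromosome 4: 2 each are on X, 2R and 3R, and 1 each on 2L and 3L, per RefSeq Release 6.

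The arrays compared whole first-instar larvae of mixed sex, mutant for *pof* or wild type, on 4 mutant and 3 wild-type arrays. Each array was hybridised with polyA RNA of a pool of 400 larvae, and the pools are biological replicates per the series' design text. Neither the *pof* allele nor the strain background is given in the sources used here. Values are log2 expression from RMA, a method that normalizes the arrays to each other and joins a transcript's probes into 1 value, which can be set beside the same probe set on another array but not beside another probe set. In RNA of whole larvae, a lower level in fewer cells and a lower level in every cell cannot be told apart.

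HP1 proteins carry a chromodomain that binds methylated H3K9 and a chromoshadow domain through which they pair and bind other proteins. HP1a, also known as Su(var)2-5 after the suppressor of variegation that led to its gene, marks the heterochromatin around centromeres and also chromosome 4, where it lies with POF, the protein encoded by *Pof*, over active genes. Su(var)3-9 is the main H3K9 methyltransferase around centromeres, while Egg, the SETDB1 enzyme of flies, methylates H3K9 on chromosome 4 and works with the cofactor Windei, encoded by *wde*. The comparison bears on whether loss of POF goes with another transcript level of the factors with which it shares that chromosome.

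No difference between pof mutant and wild type was detected for any measured transcript of the group. None of the 11 probe sets passed limma's moderated test at an adjusted p under 0.05 (smallest adjusted p = 0.962), a threshold that 0.0644% of all probe sets passed. None had an unadjusted p under 0.05 either, against 5.43% of all probe sets, and in none did the groups separate, against 6% of all. The log2 differences, pof mutant minus wild type, ran from -0.12 to 0.20. Of the 8 genes, each represented by its probe set with the highest mean, 5 were higher and 3 lower, with a median difference of 0.04, beside -0.02 over all genes. The 95% interval of the difference lay within 1.5-fold either way for 11 of 11 probe sets, as it did for 89% of all probe sets. These 11 include *HP5* (151709_r_at) and *Su(var)2-HP2* (151679_s_at), with mean levels of 2.99 and 3.05. Both lie at the floor of the array, where RMA understates changes, so their intervals do not bound the transcript.

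**Figure D1:**
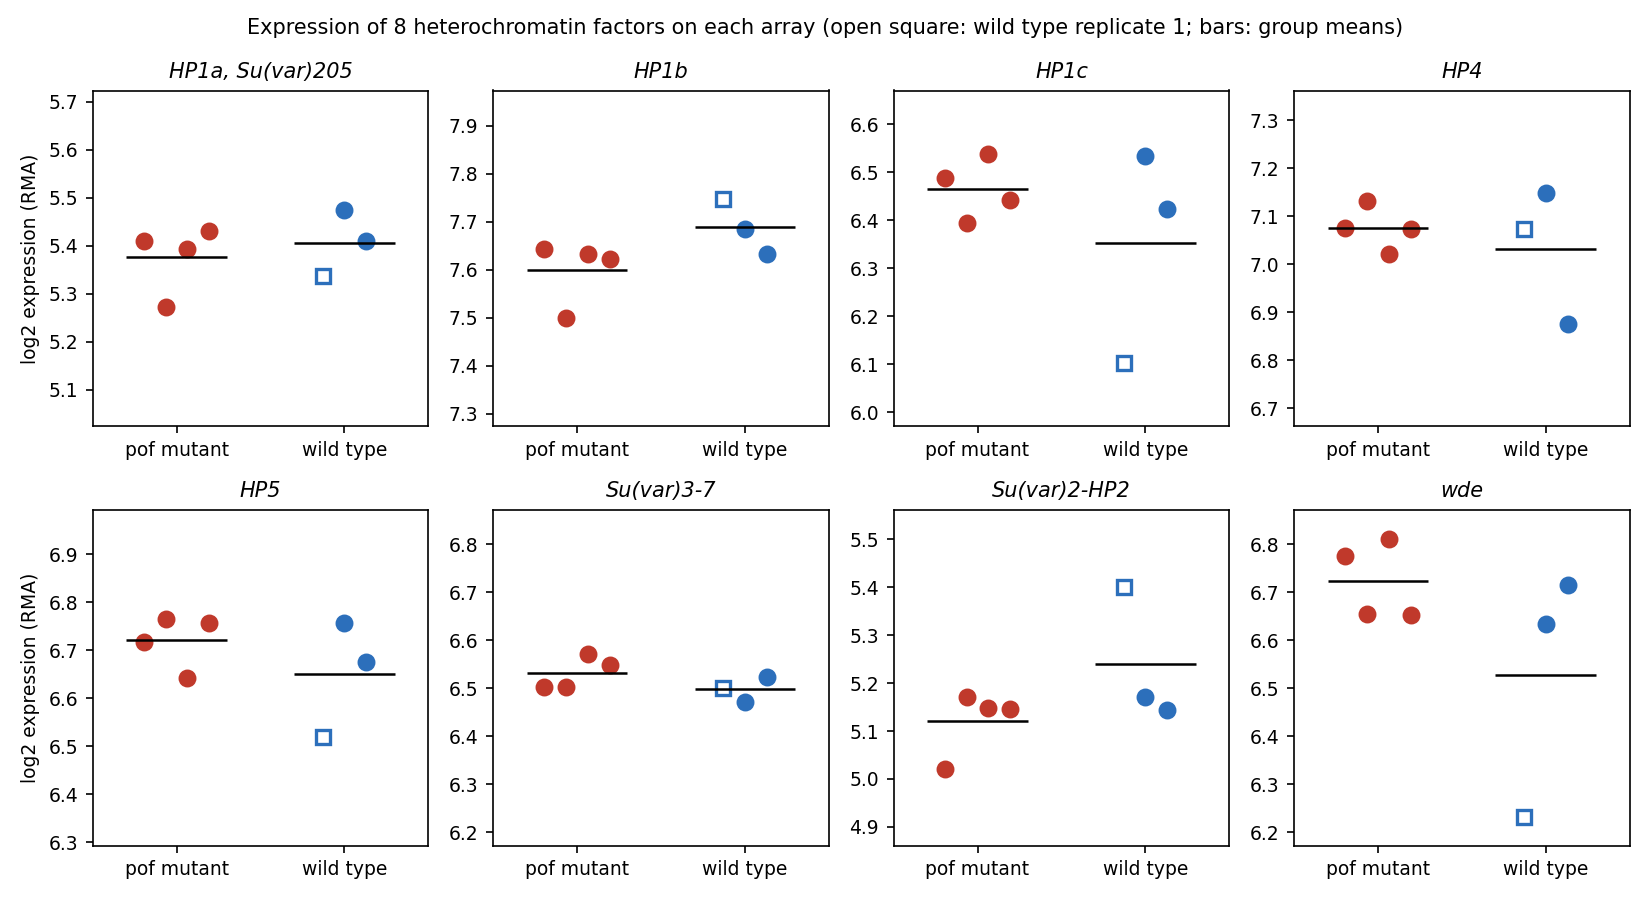
Log2 expression (RMA, vertical axis) of the 8 measured genes on each array, with pof mutant arrays in red, wild-type arrays in blue, and bars at the group means; all panels span the same range of log2 units. The groups overlap in every panel, and wild type replicate 1 (open square) is the lowest array for *HP1c*, *HP5* and *wde* and the highest for *HP1b* and *Su(var)2-HP2*.

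Wild type replicate 1 stood apart from the other arrays. On it the control transcripts of actin, eIF-4a and GAPDH gave the most uneven signal along their length: the mean of 3' minus 5' signal was 4.32 (log2), against 3.22 and 3.95 on pof mutant replicates 1 and 2 and 1.92 to 2.19 on the other 4 arrays. It was the single highest or lowest of the 7 arrays for 5 of the 8 genes and for 6 of their 11 probe sets, and for 59% of all probe sets on the array. The share among the members is thus close to the background. No difference between the groups was detected in the 3' minus 5' signal, at 2.87 ± 0.88 (SD, n = 4) in pof mutant and 2.75 ± 1.35 (SD, n = 3) in wild type (exact two-sided permutation p = 0.857).

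*HP1a* had the smallest difference of the 3 HP1 genes in the group. Its product is the founding member of the family and is required for silencing near heterochromatin. The probe set 153692_at read 5.41, 5.27, 5.39 and 5.43 on pof mutant replicates 1 to 4 and 5.34, 5.47 and 5.41 on wild type replicates 1 to 3. The lowest array was a mutant one and the highest a wild-type one, with the remaining 5 interleaved. The means of 5.38 ± 0.07 (SD, n = 4) and 5.41 ± 0.07 (SD, n = 3) differed by -0.03 ± 0.07 (SE; limma, adjusted p = 0.973). The 95% interval of -0.19 to 0.13 corresponds to 0.878-fold to 1.09-fold of the wild-type level. The sign turned to 0.0042 without pof mutant replicate 2 and to 0.0034 without wild type replicate 2, so it carries no direction.

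*HP1b* encodes an HP1 protein found in both heterochromatin and euchromatin. Probe set 144727_at read 7.64, 7.50, 7.63 and 7.62 in pof mutant and 7.75, 7.69 and 7.63 in wild type. The lowest mutant array was replicate 2 and the highest wild-type array replicate 1, while wild type replicate 3 lay among the mutant arrays. The difference of -0.09 ± 0.07 (SE) had a 95% interval of -0.24 to 0.06, or 0.846-fold to 1.04-fold (limma, adjusted p = 0.962). It was -0.06 without pof mutant replicate 2 and also without wild type replicate 1, and -0.12 without wild type replicate 3.

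*HP1c* encodes the HP1 protein of euchromatin, which acts with the zinc finger proteins Woc and Row. Probe set 154212_at read 6.49, 6.39, 6.54 and 6.44 in pof mutant and 6.10, 6.53 and 6.42 in wild type. Wild type replicate 1 deviated by -0.37 from the mean of the other 6 arrays, which themselves had an SD of 0.06. With all arrays the difference was 0.11 ± 0.11 (SE; 95% interval -0.13 to 0.36; limma, adjusted p = 0.962), and without that array it was -0.01 ± 0.07. The genes of these partners had differences of 0.0040 ± 0.13 for *woc* and 0.04 ± 0.07 for *row*.

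The 3 paralogs were also compared with each other, a comparison chosen after the values were seen. The log2 ratio of *HP1c* to *HP1b* within an array was -1.13 ± 0.04 (SD, n = 4) in pof mutant and -1.34 ± 0.27 (SD, n = 3) in wild type, a difference of 0.20 (two-sided exact permutation p = 0.0857, adjusted p = 0.171 over 3 pairs; the smallest possible p is 0.0286). Without wild type replicate 1 it was 0.05. For *HP1c* against *HP1a* the shift was 0.14 (exact permutation p = 0.114, adjusted p = 0.171), and for *HP1b* against *HP1a* it was -0.06 (exact permutation p = 0.4, adjusted p = 0.4). Both shifts were smaller once wild type replicate 1 was left out, at 0.05 and 0.0052, the latter with its sign turned. None of the 3 pairs passed the test.

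The HP1a-binding proteins gave differences of both signs, none of them past the test. *HP4* encodes a protein found by its binding to HP1a. Its probe set 153121_at read 7.08, 7.13, 7.02 and 7.07 in pof mutant and 7.07, 7.15 and 6.88 in wild type. The wild-type arrays held both the highest and the lowest value, replicates 2 and 3, and the mutant arrays lay between. The difference was 0.04 ± 0.08 (SE; 95% interval -0.14 to 0.23; limma, adjusted p = 0.97), and -0.04 without wild type replicate 3.

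*HP5*, another gene named for HP1a binding, was measured by 3 probe sets that did not share a sign. The brightest, 151708_s_at, read 6.72, 6.77, 6.64 and 6.76 in pof mutant and 6.52, 6.76 and 6.68 in wild type, with wild type replicate 1 lowest. Its difference was 0.07 ± 0.08 (SE; limma, adjusted p = 0.962), and 0.0039 without that array. Probe set 142880_at, which read from 4.99 to 5.21 in pof mutant and from 4.99 to 5.12 in wild type, gave 0.05 ± 0.07, or 0.01 without wild type replicate 3, and wild type replicate 1 was not at its edge. Probe set 151709_r_at gave -0.11 ± 0.07, but its mean level of 2.99 ranked at percentile 0.15 among all probe sets, the floor of the array, where RMA understates changes. The 2 probe sets above the floor both had intervals across 0.

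*Su(var)3-7* encodes a zinc finger protein that binds HP1a and DNA and whose dose alters silencing. It was the steadiest of the group: probe set 143371_at read 6.50, 6.50, 6.57 and 6.55 in pof mutant and 6.50, 6.47 and 6.52 in wild type. All 7 arrays lay within 0.0997 log2 units of each other, and the residual SD of 0.03 compares with a median of 0.13 over all genes. The difference of 0.03 ± 0.06 (SE; limma, adjusted p = 0.97) had a 95% interval of -0.10 to 0.16, or 0.936-fold to 1.12-fold, the narrowest of the 11, and leaving out single arrays moved it between 0.02 (without pof mutant replicate 3) and 0.05 (without wild type replicate 3). Wild type replicate 1 deviated by -0.02 from the mean of the other arrays here, so the array that stood apart for *wde* and *HP1c* did not do so for this gene.

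*Su(var)2-HP2* encodes a large HP1a partner with which HP1a shares most of its sites. Probe set 142772_at read 5.02, 5.17, 5.15 and 5.15 in pof mutant and 5.40, 5.17 and 5.14 in wild type. Wild type replicates 2 and 3 lay inside the mutant range, and replicate 1 was above every other array. The difference was -0.12 ± 0.08 (SE; 95% interval -0.31 to 0.07; limma, adjusted p = 0.962), and -0.04 ± 0.07 without that array. The second probe set, 151679_s_at, was at the floor (mean 3.05, the 0.358 percentile) and gave -0.09 ± 0.08, with its highest value of 3.23 on wild type replicate 3. That difference was -0.03 without this array and -0.04 without pof mutant replicate 1.

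*wde* had the largest difference of the 11 probe sets, and its size rested on a single array. Windei, its product, binds Egg and is needed for its methylation of H3K9. Probe set 154352_at read 6.77, 6.65, 6.81 and 6.65 in pof mutant and 6.23, 6.63 and 6.72 in wild type. Wild type replicate 1 deviated by -0.48 from the mean of the other 6 arrays, while wild type replicate 3 exceeded pof mutant replicates 2 and 4. The means of 6.72 ± 0.08 (SD, n = 4) and 6.53 ± 0.26 (SD, n = 3) differed by 0.20 ± 0.12 (SE; limma, adjusted p = 0.962; unadjusted p = 0.142), with a 95% interval of -0.08 to 0.47 that reaches 1.39-fold, the farthest of the 11. Without wild type replicate 1 the difference was 0.05 ± 0.07 (95% interval -0.12 to 0.22; limma, adjusted p = 0.929).

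**Figure D2:**
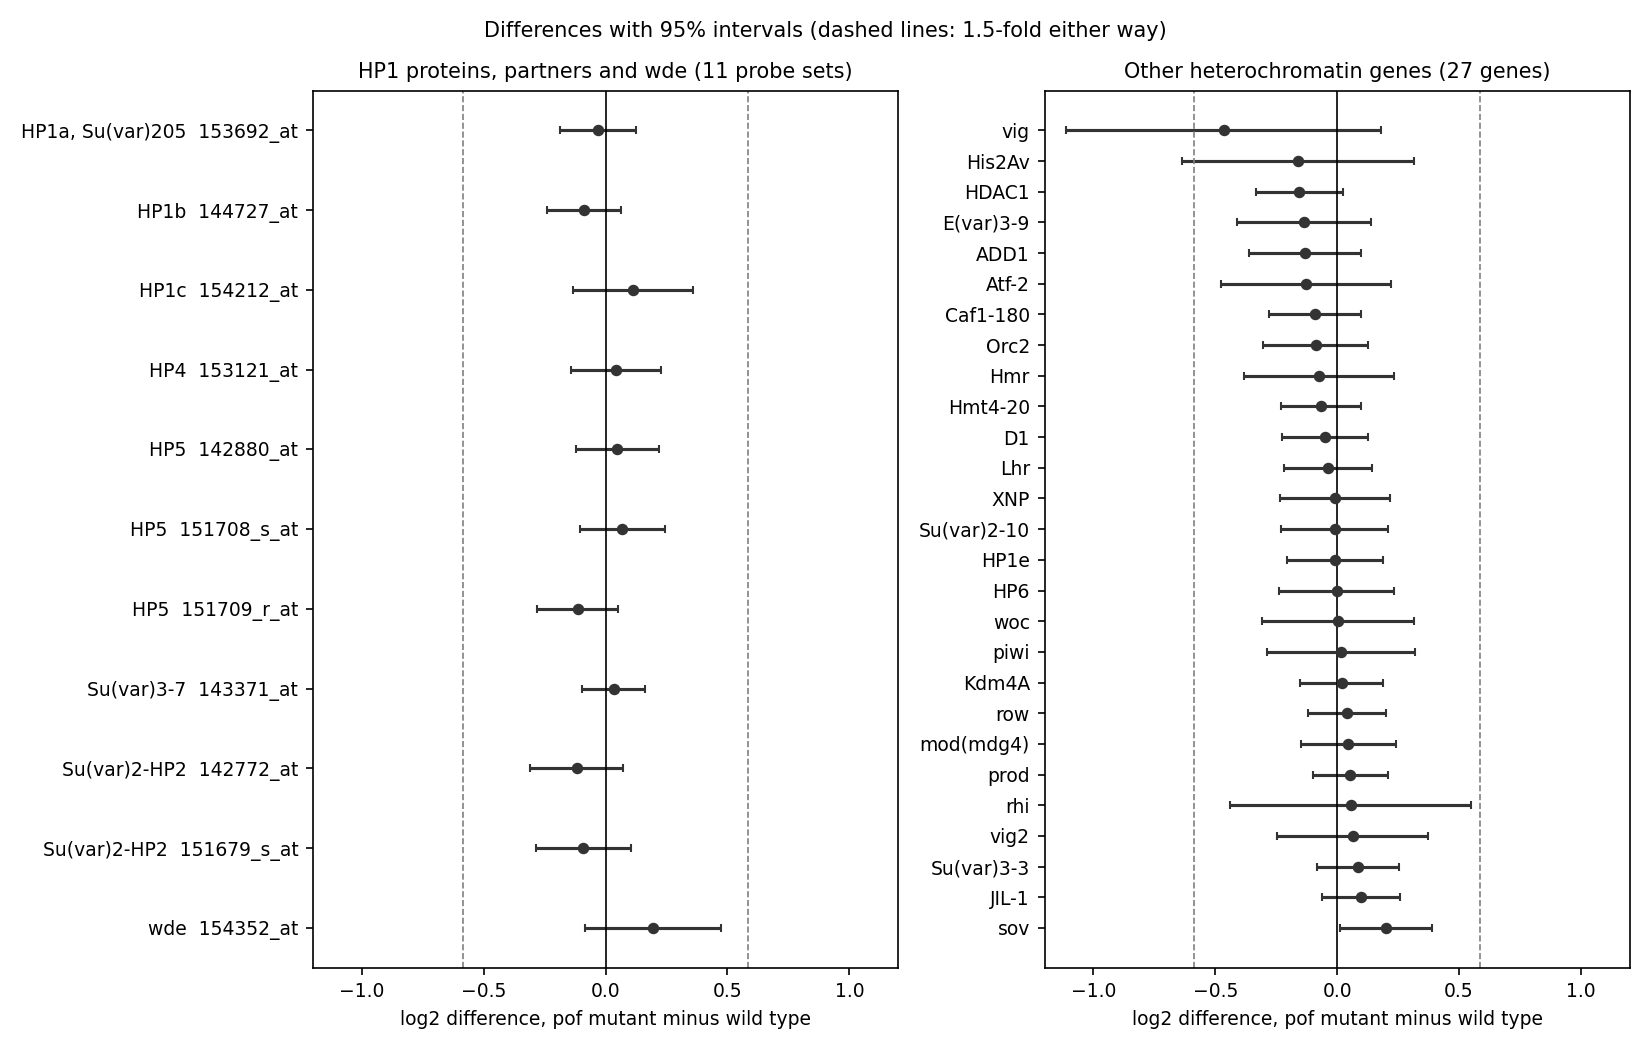
Log2 difference, pof mutant minus wild type (horizontal axis), with limma's 95% interval as bars, for the 11 probe sets of the group (left) and for 27 other heterochromatin genes (right); dashed lines stand at 1.5-fold either way. All 11 intervals on the left cross 0 and end inside the dashed lines, and *sov*, at 0.20, has the one interval on the right that does not cross 0.

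The probe sets with differences beyond 0.1 in size were *wde*, *Su(var)2-HP2* (142772_at), *HP5* (151709_r_at) and *HP1c*. Wild type replicate 1 was the highest or lowest array in each, and without it these differences became 0.05, -0.04, -0.06 and -0.01. The probe sets were picked by their differences, so an extreme array and a smaller value without it are partly built in. Wild type replicate 1 was also the single highest or lowest array for 59% of all probe sets. It was the highest for *HP1b* too, where the difference was -0.09. Whether this array accounts for the larger differences was not tested. The other 6 arrays gave 4 genes higher and 4 lower, with a median of -0.0046, and 34 of all 13966 probe sets (0.243%) passed, none of them a member.

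The 3' minus 5' signal was also used in the test. The 4 arrays with a value under 3, pof mutant replicates 3 and 4 and wild type replicates 2 and 3, gave *wde* a difference of 0.06 ± 0.08, *HP1c* 0.01 ± 0.07, *HP1b* -0.03 ± 0.06 and *Su(var)2-HP2* (142772_at) -0.01 ± 0.05. Not all differences shrank there: *Su(var)3-7* was at 0.06 ± 0.06, *HP5* at 0.06 ± 0.10 (142880_at) and -0.10 ± 0.06 (151709_r_at), and *HP1a* at -0.03 ± 0.06. The remaining probe sets gave 0.03 ± 0.11 (*HP4*), -0.02 ± 0.07 (*HP5*, 151708_s_at) and -0.07 ± 0.09 (*Su(var)2-HP2*, 151679_s_at). As a covariate over all 7 arrays the 3' minus 5' signal left the differences close to their size. *wde* was at 0.21 ± 0.08 (limma, unadjusted p = 0.0301, adjusted p = 0.282), *HP5* (151709_r_at, at the floor) at -0.12 ± 0.05 (unadjusted p = 0.0379, adjusted p = 0.305) and *HP1c* at 0.13 ± 0.07 (adjusted p = 0.418). On pof mutant replicates 1 and 2, where the signal was uneven too, *wde* (6.77 and 6.65) and *HP1c* (6.49 and 6.39) stood above their values of 6.23 and 6.10 on wild type replicate 1. Those mutant arrays were less uneven, at 3.22 and 3.95 against 4.32, and of the other genotype, so the comparison does not separate unevenness from genotype. What set wild type replicate 1 apart for *wde* and *HP1c* was not tested.

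**Figure D3:**
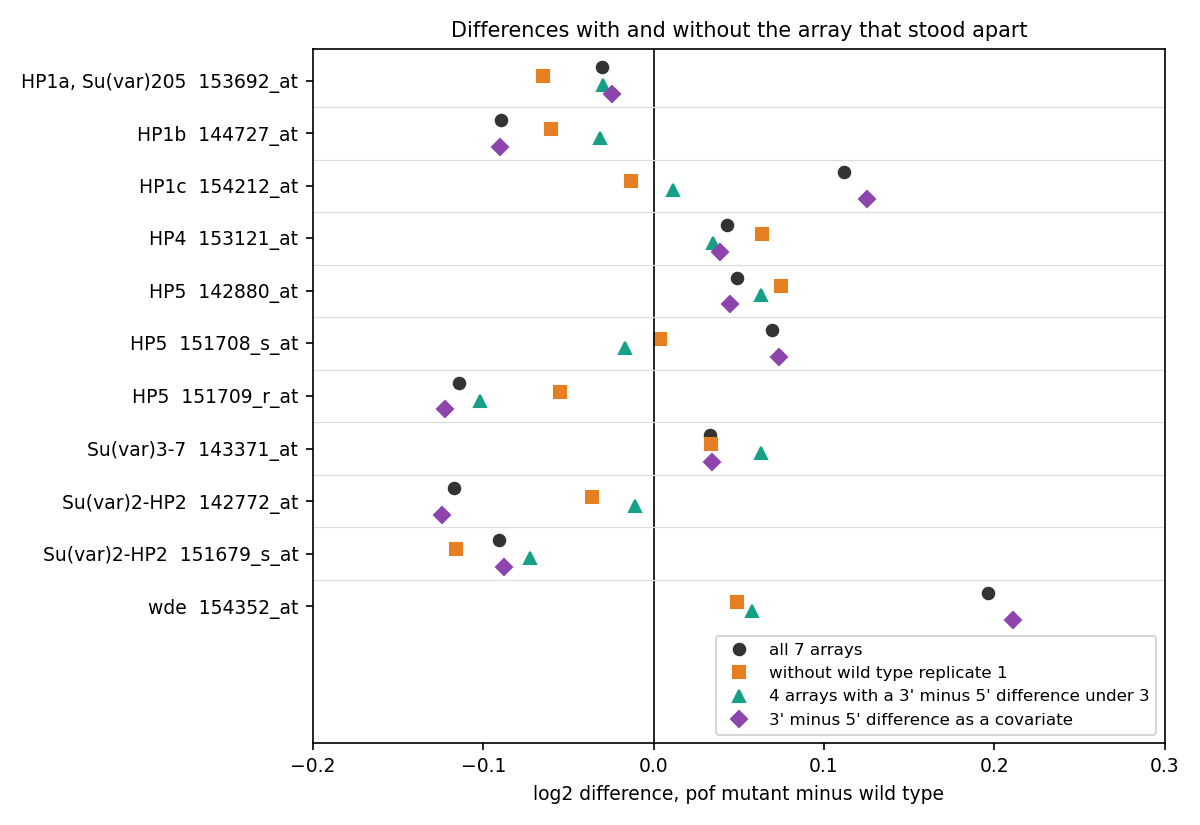
Log2 difference, pof mutant minus wild type (horizontal axis), of the 11 probe sets over all 7 arrays (circles), without wild type replicate 1 (squares), over the 4 arrays with a 3' minus 5' difference under 3 (triangles) and with that difference as a covariate (diamonds). For *wde* the circle at 0.20 goes to 0.05 without the array, for *HP1c* 0.11 goes to -0.01, and *Su(var)3-7* is at 0.03 in all settings but the 4 arrays, where it is at 0.06.

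**Figure D4:**
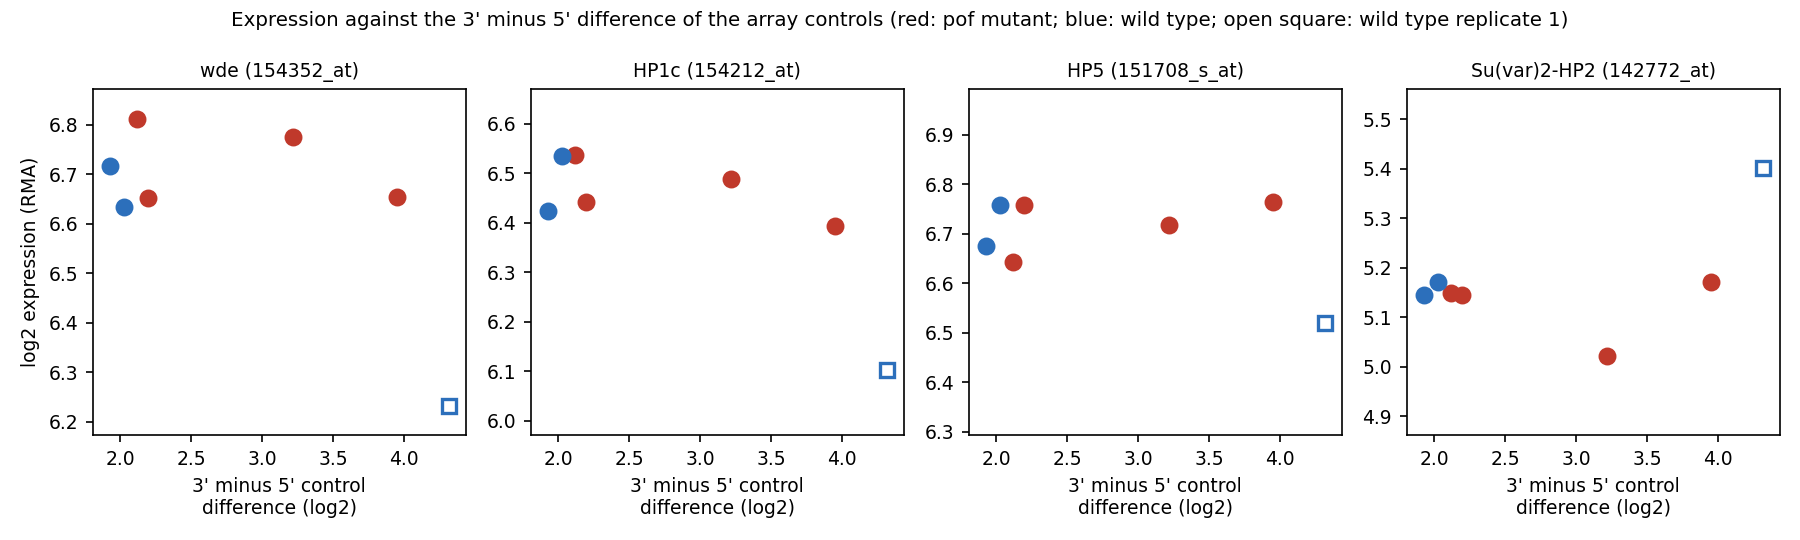
Log2 expression of *wde*, *HP1c*, *HP5* and *Su(var)2-HP2* (vertical axis) against the unevenness of the control transcripts (mean of 3' minus 5' signal, log2, horizontal axis), with pof mutant arrays in red and wild-type arrays in blue. Wild type replicate 1 (open square, at 4.32) is alone at the edge of each panel, while pof mutant replicate 2, at 3.95, lies close to the remaining 5 arrays in each.

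No difference passed the test in other genes of heterochromatin either, though not all of them were bounded as closely. The list holds 30 genes that write, remove or read silencing marks or take part in silencing, of which 27 had a probe set of their own. None of the 27 passed limma's threshold (smallest adjusted p = 0.885), 11 were higher and 16 lower, and the median difference was -0.01. The 95% interval lay within 1.5-fold either way for 25 of the 27. Only 13 of the 27 had a mean level of at least 6. For those near the floor, such as *JIL-1* with a mean of 3.48 (percentile 3.62), the interval does not bound the transcript. Of the 27, 1 had an unadjusted p under 0.05, against 5.43% of all probe sets. It was *sov*, which encodes a zinc finger protein that works with HP1a, at 0.20 ± 0.08 (SE; limma, unadjusted p = 0.0387). Its other probe sets gave -0.15 ± 0.10 (142475_at) and 0.07 ± 0.15 (151583_s_at), so the gene had no common direction.

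*HDAC1*, the histone deacetylase that clears the way for H3K9 methylation, read 6.29, 6.36, 6.46 and 6.51 in pof mutant and 6.58, 6.62 and 6.48 in wild type. Only wild type replicate 3 fell within the mutant range, and the difference was -0.16 ± 0.08 (SE; limma, adjusted p = 0.962). *vig*, which encodes an RNA-binding protein of the RNA interference complex, read 7.16, 7.73, 7.81 and 7.84 in pof mutant and 7.43, 8.38 and 8.49 in wild type. Replicate 1 was the lowest array of each group. The difference of -0.47 ± 0.28 was the largest in the list (limma, adjusted p = 0.962), with a 95% interval of -1.11 to 0.18. Leaving out single arrays moved it between -0.80 (without wild type replicate 1, adjusted p = 0.298) and -0.27 (without wild type replicate 3), with -0.31 without pof mutant replicate 1. Over the 4 arrays with a 3' minus 5' difference under 3 it was -0.61 ± 0.07 (limma, unadjusted p = 0.00059, adjusted p = 0.285). In the 17 alternatives that gave a value for *vig* it stayed negative, with an unadjusted p under 0.05 in 6. These values neither establish nor exclude a lower *vig* level. *JIL-1*, a kinase that counters the spread of heterochromatin (0.10 ± 0.07), *ADD1* (-0.13 ± 0.10) and the H3K4 demethylase gene *Su(var)3-3* (0.08 ± 0.07) complete the 6 genes with the smallest p. Each of these last 3 moved when single arrays were left out, and none changed sign. *JIL-1*, whose level was near the floor, ran from 0.06 without pof mutant replicate 2 to 0.13 without wild type replicate 2. *ADD1* was -0.04 without wild type replicate 1 and -0.07 without pof mutant replicate 4, and *Su(var)3-3* was 0.01 without wild type replicate 3. *Kdm4A*, an H3K9 demethylase gene, had differences of 0.02 ± 0.07 (142811_at) and -0.25 ± 0.17 (142037_at, highest on wild type replicate 1), so its 2 probe sets did not share a sign. *HP6*, a relative of *HP1b*, had a difference of -0.0024 ± 0.10.

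The genes whose profile over the 7 arrays was most like that of an HP1 gene were taken by the smallest root mean square distance of values centred per gene, among genes with a mean of at least 6 that varied at least as much. For *HP1a* these were *CG6282* and *ND-19*, both at a distance of 0.03 log2 units, against a median of 0.16 over 5080 candidates. For *HP1b* they were *hng3* and *Cad74A* (both 0.03; median 0.17 over 4509), and for *HP1c* *CG4572* (0.03) and *TTLL12* (0.04; median 0.25 over 2560). These distances describe the 7 arrays only and were not tested.

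*Pof* and markers of larval tissue and of other tissues were read as a description of the samples. *Pof* read 3.43, 3.43, 3.50 and 3.41 in pof mutant and 3.90, 3.77 and 3.64 in wild type, with no overlap but at the 4.86 percentile of level and without passing the threshold (limma, adjusted p = 0.323). The 3 gut and 3 cuticle genes measured had mean levels of 11.4 to 12.7 and 6.24 to 9.41, the muscle gene *Tm2* 9.85, and the neuronal genes *nSyb* and *elav* 6.22 and 3.77. The gut genes differed between the groups with both signs. *betaTry* gave 1.37 ± 0.22 (SE; limma, adjusted p = 0.156), *Jon65Aiii* 0.46 ± 0.19 (adjusted p = 0.885) and *Jon25Biii* -0.58 ± 0.13 (adjusted p = 0.323). Testis genes lay at 3.48 to 5.87, the germ line genes *vas* and *osk* at 3.73 and 4.07, and 4 adult female genes at 6.87 to 8.29. Since levels of different probe sets cannot be compared, these values do not settle which tissues or stages the RNA came from, and the adult female genes, at percentiles 69.5 to 90.5, were not at the floor. Pairs of arrays correlated at 0.970 to 0.995 over all probe sets, and none was identical. With 7 arrays, their number sets the precision of all values.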

How the data were processed

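The deposited values are log2 expression values from RMA, per the submitters' processing notes, which give no version. They ran from 2.62 to 14.5 on 7 single-colour arrays, and no further normalization was applied. Groups were taken from the sample titles. Probe sets were named through the platform's annotation table and updated by gene identifier from RefSeq (Release 6). Probe sets of more than 1 gene stayed in the test without a name, and no coordinates or sequences are printed.

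The 13966 probe sets other than 44 controls were fitted with limma 3.58.1 in R 4.3.3 for the 2 groups alone, through lmFit and then eBayes, taking wild type from pof mutant; p was adjusted by Benjamini and Hochberg's method over all of them, with 0.05 as the limit, and 95% intervals are limma's. The probe set with the highest mean stood for its gene. The steps were tested on simulated data. Members, lists and alternatives were chosen with earlier results of these data known. The text names all members, *Pof*, up to 6 listed heterochromatin genes with the smallest p, and the genes nearest in profile to the HP1 genes. *woc*, *row*, *Kdm4A* and *HP6* were named after their values were seen. Alternatives were another quantile normalization, centring, a level limit of 6, other variance models, array weights, the replicate number as a block, the 3' minus 5' signal, other choices of probe sets and leaving out each array. Figures were drawn with matplotlib 3.10.9.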

Additional observations from a re-analysis of the deposited data

Results flagged for a closer look

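Outlying arrays were looked for among the 4 pof mutant arrays, not among the 3 of wild type. Over 17 sets of 4 values, those of the 11 member probe sets and of 6 other heterochromatin genes, 4 had an array whose gap to the nearest other exceeded Dixon's 95% limit. By chance 1 set in 20 would, or 0.85 of 17, if the values were independent and normally distributed. The share over all probe sets was not computed, and the 6 other genes were picked by their small p. The count therefore cannot be read as an excess in these genes. *HP1b* read 7.50 on pof mutant replicate 2, where the remaining mutant arrays had a median of 7.63. *Su(var)2-HP2* was low on pof mutant replicate 1 by both probe sets, at 5.02 against 5.15 (142772_at) and at 2.85 against 3.05 (151679_s_at). *vig* read 7.16 there, with 7.81 as the others' median. The probe sets of *Su(var)2-HP2* share a gene, so these are not 4 independent cases, and no explanation was tested.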

How the results depend on the processing

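No member probe set passed the threshold under any of the 18 alternatives run, and the smallest adjusted p was 0.272 (limma with array weights). Of 182 member values under these alternatives, 171 kept their sign and 11 reversed. With array weights *HP1c* was -0.057, *HP4* -0.070 and *HP5* (151708_s_at) -0.032, the member median was -0.057, that of the other heterochromatin genes -0.047, and 1200 probe sets passed, among them *vig* and *sov* (2 of the 27 other genes). That estimate did not converge and gave wild type replicate 2 a weight of 17.1 against 0.142 for wild type replicate 1. Weights estimated gene by gene, added after seeing the data, gave 76 calls, no call in either list, a member median of -0.0080, and *HP1c* -0.013, *HP4* -0.00068 and *HP5* -0.0031. Over the 4 arrays with a 3' minus 5' difference under 3, *HP5* was -0.017, the medians were 0.00010 and 0.019, and 0 probe sets passed. With that difference as a covariate 86 passed. Leaving out each array in turn gave 0 to 34 calls, a member median of -0.0046 to 0.060, a median of -0.059 to 0.0067 for the other genes, and ranges of -0.065 to 0.0042 for *HP1a*, -0.013 to 0.20 for *HP1c* and -0.036 to 0.10 for *HP4*. The count of calls was lowest without pof mutant replicate 1 and highest without wild type replicate 1; it was 5 when either replicate 2 or 3 of the mutant, and 2 when replicate 2 of wild type, was left out. The other genes' median was -0.050 at a level of at least 6 and -0.038 with the mean of all probe sets of a gene, where the member median was 0.017 against 0.038. At an unadjusted p under 0.05 759 of all probe sets passed, and at an adjusted p under 0.01 4 did. Deviations from the group means correlated at 0.245, -0.571 and 0.559 between arrays of the same replicate number. Pof mutant replicates 1 and 3 correlated best with the wild-type array of their own number. Replicate 2 correlated best with wild type replicate 1 (0.690), so these values do not settle whether the number pairs the arrays. With the replicate block, which cannot use pof mutant replicate 4, 2 probe sets passed, neither a member, and the member median was 0.04. In the block fit *vig* was -0.53 ± 0.12 (SE; limma, unadjusted p = 0.0056, adjusted p = 0.501). The number of arrays limits all of this, and probe sets near the floor understate changes.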
